A study of Mus musculus with 8 samples.

Results

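Interleukin-13 (IL-13) given alone was compared with no treatment in RAW264.7, a line of mouse cells resembling macrophages that was transformed with Abelson leukaemia virus. The comparison used 4 of the 8 arrays of the series, namely the IL-13 and the untreated array at 12 h and at 24 h, and each IL-13 array was set against the untreated array of its own time. The other 4 arrays, of cells given all-trans retinoic acid (ATRA) alone or with IL-13, helped to set the spread, the genes tested and the fitted change between times, and their own effects are not described. The labels class untreated cells as unpolarized and cells given IL-13 as M2 macrophages, and they give no doses. All cells were of 1 line grown in DMEM with 15% serum, and total RNA was hybridized to one-colour Agilent arrays. Nothing in the labels says that the arrays come from separate cultures, and the p-values therefore cover the spread among these arrays alone, which may be technical. No treatment had 2 arrays at the same time, and the spread is therefore how far the 4 treatments disagreed between 12 h and 24 h.

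IL-13 signals through a receptor made of IL-13 receptor alpha 1 and IL-4 receptor alpha, whose Janus kinases phosphorylate the transcription factor STAT6. In macrophages this pathway is known for alternative, or M2, activation: arginine metabolism, lectin and scavenger receptors, chemokines for eosinophils and monocytes, and factors for tissue repair. Feedback inhibitors of the SOCS family, of which Cish is a member, are among the quickest targets of STAT proteins.

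In these cells IL-13 raised Cish by at least 173-fold and Arg1 by at least 37.1-fold, and it raised the mannose receptor gene Mrc1 36.5-fold. The integrin gene Itgax, the coagulation factor gene F10, the chemokine genes Ccl7 and Ccl2, and the growth factor genes Hbegf, Vegfc, Edn1 and Igf1 rose with them. On the other side, Alox5, Oas3, Bmf and Cx3cr1 fell. The 29 measured interferon-stimulated effectors all had lower fitted values with IL-13, although 3 of them passed the test.

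All 8 macrophage markers checked, among them Csf1r, Cd68, Spi1 and Lyz2, were well above background on the 4 arrays. Cdh1, Epcam, Col1a1, Pdgfra, Cdh5, Ms4a1, Ncr1, S100a9, Elane and Cpa3, which mark other cell types, were not well above background on any of the 4. Low signals of Cd3e, S100a8, Mpo, Col1a2 and Kdr were above background on all 4, and over the markers of T, B and NK lymphocytes the highest signal was 62.3. The 75th percentile of the signal was lowest, at 448, for IL-13 at 12 h and highest, at 739, for IL-13 at 24 h among the 8 arrays. Every array was divided by its own percentile, and this moves probes without signal: the 14349 probes not well above background on any of the 4 arrays had a median log2 difference of 0.58 at 12 h and of -0.47 at 24 h. Over the 21880 probes above background on all 4 arrays the median was 0.014 at 12 h. The part of this shift in the differences of dim genes was not tested. Slide 1 held the 12 h arrays and slide 2 those of 24 h, and an effect of time cannot be told apart from one of slide.

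Of the 15439 genes tested, 105 were called higher with IL-13, or 0.68%, and 91 were called lower, or 0.589%. A gene could enter the test through any treatment that detected it. Over the 15108 genes detected on both untreated arrays, 80 were called higher and 90 lower. A gene was called where its p from limma, adjusted by Benjamini-Hochberg over the whole table, was under 0.05; limma is a linear model whose error for each gene is drawn towards that of the others. All 196 called genes had the same sign at both times, which the test favours because disagreement between times is its error. An unadjusted p under 0.05 was reached by 3694 genes. Counts of called members of the lists below are to be read beside the shares of all genes, 0.68% higher and 0.589% lower. The lists were chosen with earlier results of these data known. With quantile normalization in place of the 75th percentile the calls were 113 higher and 52 lower, and with the authors' deposited values 110 higher and 52 lower.

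By size alone, 202 genes were at least 2-fold higher at both times (1.31%) and 245 were at least 2-fold lower at both times (1.59%). With quantile normalization these counts were 237 higher and 191 lower, and with the authors' deposited values 236 and 193, so that which direction was more frequent at 2-fold follows the scaling. At larger sizes 63 genes were at least 4-fold higher at both times and 16 at least 4-fold lower. At 12 h alone 352 genes were at least 2-fold higher and 926 lower, and at 24 h alone 321 were higher and 846 lower. At 24 h, 44 genes were at least 8-fold higher and 30 lower. Detection differed between the groups: 32 of the 63 genes at least 4-fold higher at both times were well above background on all 4 arrays, and 0 of the 16 at least 4-fold lower were, against 90.6% of all genes tested. The large falls therefore end in signals near background.

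**Figure D1:**
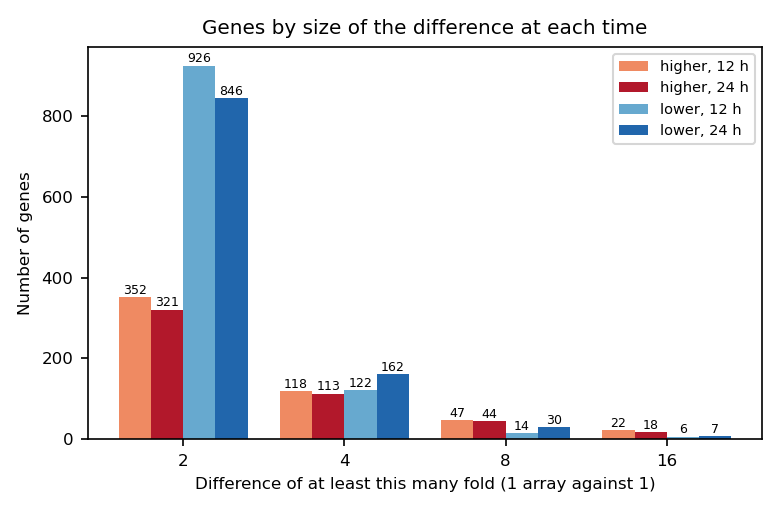
Number of genes (vertical axis, from 0) whose IL-13 and untreated arrays differed by at least 2-fold, 4-fold, 8-fold or 16-fold (horizontal axis) at 12 h and at 24 h, each difference being 1 array against 1. Lower genes outnumber higher ones at 2-fold under the scaling used (926 against 352 at 12 h), and higher genes outnumber lower ones at 8-fold and 16-fold.

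**Figure D2:**
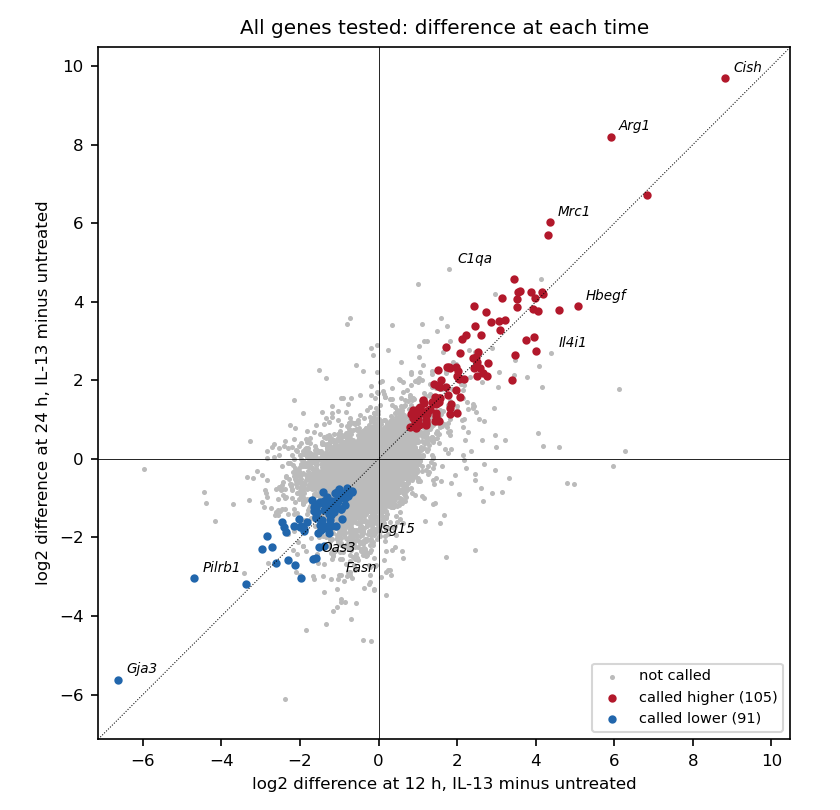
Each point is 1 of the 15439 genes, with its log2 difference (IL-13 minus untreated) at 12 h on the horizontal axis and at 24 h on the vertical axis. The dotted line marks equal differences, red points are the 105 genes called higher and blue points the 91 called lower. All called genes lie to the lower left or the upper right of the origin, which the test favours.

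The calls rested on few arrays. Without the untreated array at 24 h, 2 genes were called in all, and without the untreated array at 12 h 9 were. Without the IL-13 array at 12 h the count was 357, and without the IL-13 array at 24 h it was 41. Of the 60 called genes that are named or belong to the gene lists, Cish was the only one still called whichever of the 8 arrays was left out. Irf4, Batf3 and Edn1 lost the call only without the untreated array at 24 h, where their adjusted p was 0.0735, 0.0735 and 0.0827. Arg1, Mrc1, Igf1 and Tbxas1 lost it without either untreated array, with an adjusted p of at most 0.105 for Arg1, Mrc1 and Igf1 and at most 0.14 for Tbxas1. Without the untreated array at 12 h 4 of the 60 were still called, and without the IL-13 array at 24 h 13 were. The other 59 lost the call at least without the untreated array at 24 h, so every call given here for a gene other than Cish rests on that array. None of the 60 changed direction in any of these fits.

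Of 14 tested members of the receptor and JAK-STAT list, 0 were called higher and 1, Stat2, was called lower, and the median log2 difference was -0.10 against -0.0023 for all genes tested. An unadjusted p under 0.05 was reached by 7 of the 14, with 3 higher and 4 lower values, against 3694 of 15439 genes. Il13ra1, the signalling chain, read 596 and 835 in untreated cells at 12 h and 24 h and 530 and 586 with IL-13. Stat6 itself differed by 0.23 ± 0.11 on the log2 scale (limma standard error, as for every ± here; adjusted p = 0.264), and its other 2 probes gave 0.094 and -0.30. Il13ra2, the decoy receptor that binds IL-13 without signalling through STAT6, read 8.35 and 11.0 in untreated cells and 70.2 and 51.5 with IL-13. Its untreated probe was above background on 1 of 2 arrays, and the difference of 2.65 ± 0.55 did not pass the test (adjusted p = 0.0955). Il4ra and Jak3 had lower signals with IL-13 at both times, at -0.99 ± 0.20 and -1.50 ± 0.46, and neither was called (adjusted p = 0.0881 and 0.15).

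Among 14 feedback inhibitors of cytokine signalling, Cish and Socs1 were called higher and 0 were called lower, beside 0.68% and 0.589% of all genes. Over the 12 detected on both untreated arrays, 1 (Socs1) was called higher and 0 lower, and the median was -0.0045. Cish read 2.64 and 2.0 on the untreated arrays, below background on both, and 1193 and 1644 on the IL-13 arrays. The adjusted p was 0.00176, the smallest of the genes named here. Socs1, which blocks Janus kinases, went from 127 and 97.8 to 873 and 532, a log2 difference of 2.61 ± 0.24 (adjusted p = 0.0228). Socs2 was not above background in untreated cells and read 16.7 and 19.5 with IL-13, at least 2.22-fold higher, and was not called (adjusted p = 0.107). The Socs3 probe used differed by -0.12 ± 0.11, and its other probe by 0.85. The call for Socs1 was lost without either untreated array or without either array of IL-13 with ATRA (adjusted p up to 0.143).

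The promoter of Cish is shown because STAT proteins are known to act on it through paired sites. In the RefSeq promoter table (build GRCm38.p6), which runs from 250 bases before to 50 after each annotated start, the Cish promoter on the plus strand at chr9:107296409-107296708 held 2 matches to TTC and GAA with 3 bases of any kind between them, searched on both strands and printed in capitals. They began 0 and 11 bases from the start. This spacing is bound by several STAT proteins, whereas STAT6 is known for the form with 4 bases between TTC and GAA.
Cish: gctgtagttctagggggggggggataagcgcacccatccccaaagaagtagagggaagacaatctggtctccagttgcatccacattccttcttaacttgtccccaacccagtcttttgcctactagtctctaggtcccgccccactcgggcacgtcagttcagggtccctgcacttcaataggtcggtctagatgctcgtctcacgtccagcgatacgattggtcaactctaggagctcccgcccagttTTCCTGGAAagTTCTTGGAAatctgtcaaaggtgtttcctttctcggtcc

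Of 17 tested transcription factors of the alternative activation list, 5 were called higher and 0 lower, beside 0.68% and 0.589% of all genes. The other 12 held the list's median to 0.10. Batf3, a basic leucine zipper factor known from dendritic cells, read 16.4 and 21.8 in untreated cells and 258 and 373 with IL-13, a difference of 4.04 ± 0.15 (adjusted p = 0.00413). Irf4, the interferon regulatory factor that acts in M2 activation, read 8.69 and 8.59 and then 81.6 and 100.3, a difference of 3.39 ± 0.15 (adjusted p = 0.00634). For both genes the 2 IL-13 arrays lay above both untreated arrays by more than 3 log2 units at each time. Egr2 rose by 2.38 ± 0.30, Bhlhe40 by 1.82 ± 0.22 and Nfil3 by 1.47 ± 0.18 (adjusted p = 0.0391, 0.0376 and 0.0391). Myc was just outside the threshold, with 393 and 229 in untreated cells and 982 and 561 with IL-13 (difference 1.31 ± 0.19, adjusted p = 0.051). Klf4 and Pparg, which are also linked to M2 activation, differed by 0.0079 ± 0.26 and 0.21 ± 0.13. Of the immediate early genes, 1 of 21 was called, the stress-responsive Atf3, which went from 972 and 952 to 3285 and 2958. The calls of Egr2, Bhlhe40, Nfil3 and Atf3 were each lost without 4 to 6 of the arrays, always including both untreated ones (adjusted p up to 0.228 for Egr2).

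The effectors of alternative activation gave the largest median of the lists. Of 24 effectors on the array 15 passed the detection filter, and 13 of these were above background on both untreated arrays, so that they did not pass merely by rising. Over those 13 genes 6 were called higher and 0 lower, against 80 and 90 of the 15108 genes detected the same way. The median log2 difference was 2.05, against -0.0061 over those 15108. The 9 effectors that did not pass in any treatment included Retnla, Ccl17, Ccl22, Alox15 and Mmp12.

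Arg1, the arginase that turns arginine into ornithine and urea, read 2.98 and 1.72 in untreated cells, below background, and 179 at 12 h and 507 at 24 h with IL-13 (adjusted p = 0.0174). Mrc1 read 16.1 and 10.9 in untreated cells and 330 and 711 with IL-13, a difference of 5.19 ± 0.37 (adjusted p = 0.0174). In both genes the IL-13 signal at 24 h was above that at 12 h. The change of the IL-13 effect between times, fitted over cells with and without ATRA, was 1.09 for Arg1 and 0.75 for Mrc1 on the log2 scale and was called for neither (adjusted p = 0.577 and 0.599). Clec7a, the beta-glucan receptor dectin-1, went from 4893 and 4715 to 19736 and 19925. Cd36, a scavenger receptor for oxidized lipids, went from 9205 and 6919 to 26055 and 25130. Both were already bright before IL-13, and the differences were 2.05 ± 0.14 and 1.68 ± 0.23 (adjusted p = 0.0174 and 0.0474). Cd36 was not called with quantile normalization or with the authors' values (limma adjusted p = 0.0731 and 0.0745).

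Less abundant surface and secreted products followed the same course. Ccl24, the eosinophil chemokine eotaxin-2, read 35.9 and 27.3 and then 260 and 305 (adjusted p = 0.0443). Folr2, a folate receptor of tissue macrophages, read 27.0 and 16.6 and then 126 and 148 (adjusted p = 0.0331). Cd200r1, an inhibitory receptor, read 81.7 and 118 and then 492 and 580 (adjusted p = 0.039). Its relative Cd200r3 was below background in untreated cells and at least 3.57-fold higher. Several known members had higher signals with IL-13 at both times and missed the threshold. Il4i1, an amino acid oxidase, read 89.2 and 122 in untreated cells and 1861 and 795 with IL-13 (adjusted p = 0.0951). The lectin Mgl2 read 32.9 and 39.8 and then 181 and 261 (adjusted p = 0.0896), and Il10 read 26.0 and 32.0 and then 90.2 and 79.4 (adjusted p = 0.0513). Tgm2 and Stab1 overlapped between the groups, and their further probes had the opposite sign (-0.25 and -0.18 for Tgm2, 1.018 for Stab1, against 0.47 and -0.66).

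**Figure D3:**
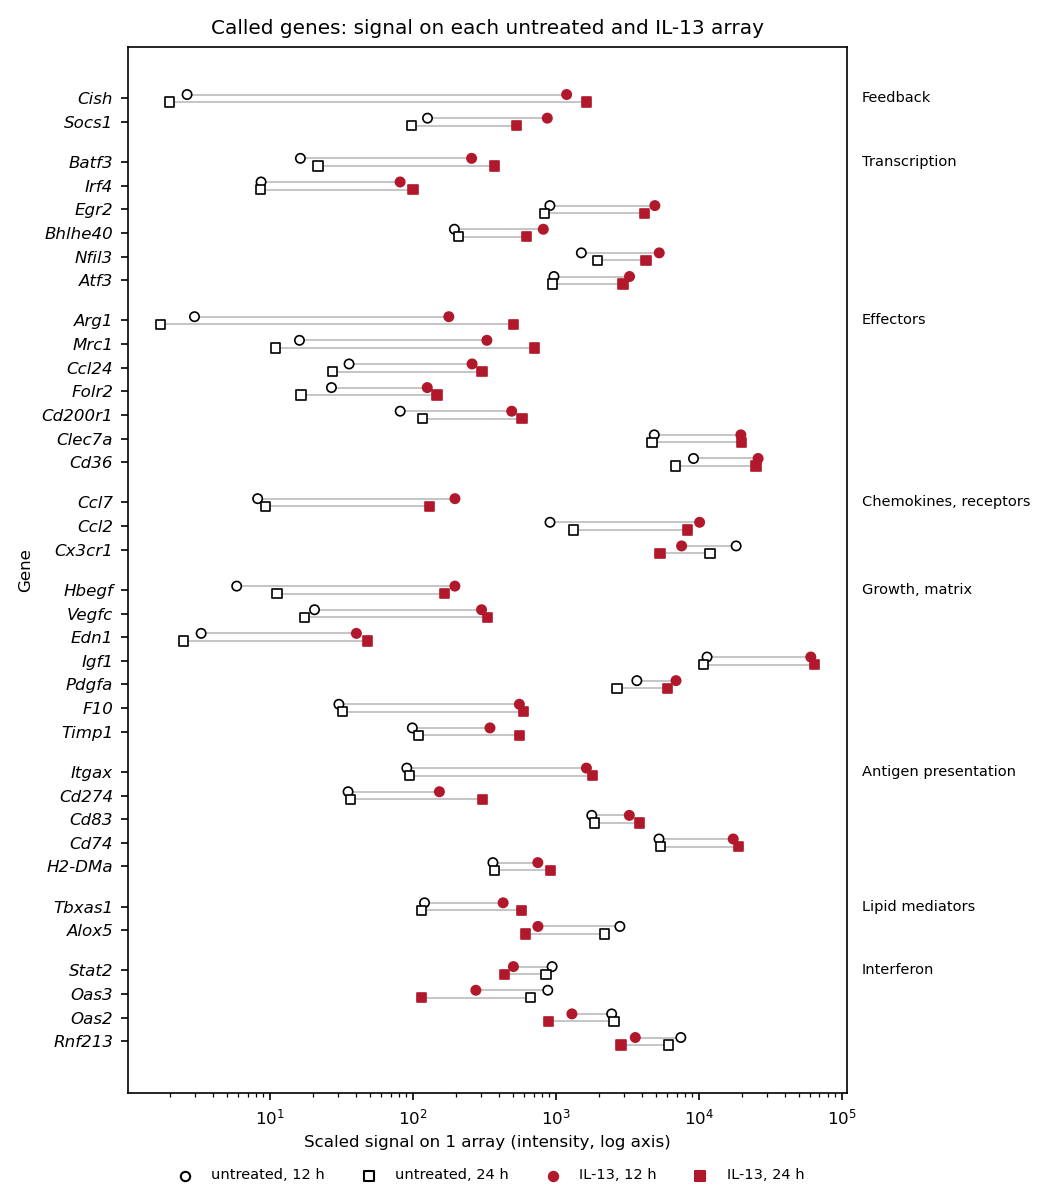
Scaled signal (horizontal log axis, intensity) on each of the 4 arrays for called genes, grouped by role. Open symbols are untreated and filled symbols IL-13 arrays, circles are 12 h and squares 24 h, and grey lines join the arrays of 1 time. In every row both filled symbols lie on the same side of both open ones, from Cish (2.64 to 1193 at 12 h) at the top to Rnf213 at the bottom. Only called genes were drawn and the test favours such rows, so this separation is no further support.

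Of 10 tested CC chemokines, 3 were called higher (Ccl2, Ccl7 and Ccl24) and 0 lower, beside 0.68% and 0.589% of all genes. Over the 8 detected on both untreated arrays 2 were called and the median difference was 1.65. Of 6 CXC chemokines 0 were called by limma, 3 had an unadjusted p under 0.05, and their median was -0.19. Ccl2, which attracts monocytes, went from 912 and 1339 to 10154 and 8351, and Ccl7, with similar targets, from 8.23 and 9.34 to 197 and 130 (adjusted p = 0.0356 and 0.0286). Of the untreated Ccl7 signals 1 of 2 was above background, and a further probe gave a difference of 4.17. The Ccl7 call was lost without either untreated or either IL-13 array (adjusted p up to 0.169), and the Ccl2 call without those or either ATRA array (up to 0.187). Ccl4, Ccl3, Ccl9 and Ccl6, which lie with Ccl2 and Ccl7 on chromosome 11, had differences of 2.78, 1.89, 1.42 and 1.27 and were not called (adjusted p = 0.0584, 0.0846, 0.0951 and 0.0576). Ccl5, also on chromosome 11, differed by -0.041 ± 0.27. Cxcl10 and Cxcl11, which interferon induces, had values of -1.34 ± 0.35 and -1.57 ± 0.46 (adjusted p = 0.127 and 0.144).

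The CC chemokine differences were larger at 12 h in 7 of the 10 genes, with medians of 2.12 at 12 h and 1.27 at 24 h. Ccl4, for example, read 32013 at 12 h and 19121 at 24 h with IL-13. The change between times was not called for any of them (smallest adjusted p over all genes 0.465), so the order of the times is a description of these arrays.

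Cx3cr1, the fractalkine receptor of resident macrophages, fell from 18291 and 12030 to 7599 and 5378, a difference of -1.21 ± 0.12 (adjusted p = 0.0285). No inflammatory cytokine of the 11 tested was called by limma, 4 had an unadjusted p under 0.05, and their median was 0.048. Il1b read 27.8 and 34.7 and then 118 and 148 (difference 2.09 ± 0.35, adjusted p = 0.0636), while Tnf differed by 0.048 ± 0.25. Il1rn, the antagonist of the interleukin-1 receptor, had a difference of 1.57 ± 0.30 (adjusted p = 0.0784).

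Of 13 tested growth and angiogenic factors 5 were called higher and 0 lower, beside 0.68% and 0.589% of all genes. Over the 10 detected on both untreated arrays, 3 were called and the median was 0.15, so the list was split between large rises and little change. Igf1, insulin-like growth factor 1, was bright throughout and went from 11453 and 10853 to 60879 and 64575 (difference 2.49 ± 0.15, adjusted p = 0.0142). Its other 3 probes gave 2.67, 2.88 and 2.95. Vegfc, a lymphatic growth factor, went from 20.6 and 17.5 to 303 and 333 (adjusted p = 0.0357). Hbegf, a ligand of the epidermal growth factor receptor, went from 5.87 and 11.2 to 197 and 167 (adjusted p = 0.0331), with 1 of 2 untreated arrays above background. Edn1, the precursor of the vasoconstrictor endothelin-1, was below background in untreated cells, read 40.3 and 48.0 with IL-13 and was at least 5.43-fold higher (adjusted p = 0.00875). Pdgfa rose by 1.04 ± 0.12 (adjusted p = 0.0357), a call kept in 5 of 10 alternative settings, aside from fits without 1 array. Vegfa showed no such difference on the probe used (-0.00017 ± 0.11), and its other 3 probes gave 0.32 to 0.50.

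Among 13 tested genes for matrix, proteases and coagulation, F10 and Timp1 were called higher and 0 lower, beside 0.68% and 0.589% of all genes. F10, the precursor of coagulation factor X, read 30.4 and 32.4 in untreated cells and 557 and 598 with IL-13. That is a difference of 4.20 ± 0.43 (adjusted p = 0.0286), of nearly the same size at 12 h (4.19) and 24 h (4.20). Timp1, an inhibitor of metalloproteinases, went from 99.3 and 110 to 347 and 557 (adjusted p = 0.0207). Spp1, the bright osteopontin gene, overlapped between the groups with 66590 and 95369 untreated and 89288 and 62540 with IL-13.

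Genes of dendritic cells and antigen presentation gave calls in several lists. Itgax, which encodes the integrin CD11c used as a dendritic cell marker, read 90.9 and 95.3 in untreated cells and 1640 and 1818 with IL-13. Its difference of 4.21 ± 0.31 (adjusted p = 0.0177) was 4.17 at 12 h and 4.25 at 24 h, and a dimmer probe gave 2.68. Cd274, the inhibitory ligand PD-L1, went from 35.3 and 36.8 to 154 and 307, and Cd83, a maturation marker, from 1788 and 1868 to 3273 and 3841 (adjusted p = 0.0278 and 0.0332). These 3 were the genes called higher among 11 costimulatory and dendritic cell genes, and 0 were called lower, beside 0.68% and 0.589% of all genes. Icosl, a costimulatory ligand, pointed the other way with -1.40 ± 0.28 and was not called (adjusted p = 0.0859). Itgax was also the only called rise among 12 leukocyte integrins. Itga6, a laminin receptor subunit, fell by 1.32 on the log2 scale from 2160 and 1769 to 758 and 812, and Itga4, a subunit of VLA-4, fell from 36793 and 35874 to 21382 and 18630 (adjusted p = 0.0339 and 0.0474). The Itgax call was lost without either untreated array or the IL-13 array at 24 h (adjusted p up to 0.127), and the Itga4 call without any 1 of the 8 arrays (adjusted p from 0.0704 to 0.187).

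Of 9 tested genes of MHC class II presentation 2 were called higher and 0 lower, with a median of 1.1. Cd74, the invariant chain, went from 5279 and 5385 to 17446 and 19056, and H2-DMa, a peptide-loading subunit, from 364 and 373 to 750 and 920 (adjusted p = 0.0207 and 0.0462). H2-Ab1, a class II beta chain, read 11.5 and 10.71 in untreated cells and 32.5 at 12 h and 102 at 24 h with IL-13 (adjusted p = 0.0813). Ciita, the transactivator of class II genes, read 14.4 at 12 h, near its untreated 10.1, and 40.7 at 24 h. The differences of 8 of the 9 genes were larger in size at 24 h, with medians of 0.57 at 12 h and 1.36 at 24 h. Over the 8 genes detected on both untreated arrays these medians were 0.63 and 1.33. The change between times was not called for any member. Of 13 class I genes 0 were called by limma, 3 had an unadjusted p under 0.05, and the median was -0.027.

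C4b, of the classical pathway, was the 1 call among 13 members, rising from 9.99 and 11.1 to 54.3 and 164 (difference 3.17 ± 0.44, adjusted p = 0.0487). The call was lost without any array except the IL-13 array at 12 h (adjusted p up to 0.23). C1qa, C1qb and C1qc encode the chains of C1q, which opens that pathway. Their log2 differences were 1.79, 1.16 and 1.01 at 12 h and 4.84, 3.0 and 4.46 at 24 h. None was called (adjusted p = 0.1, 0.111 and 0.155), nor was their change between times. Part of the gap lay in the untreated cells: untreated C1qa read 63.7 at 12 h and 22.6 at 24 h, while with IL-13 it read 221 and 646. Cfb, C5ar1 and Cd93 pointed lower, at -0.97, -0.90 and -0.86.

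**Figure D4:**
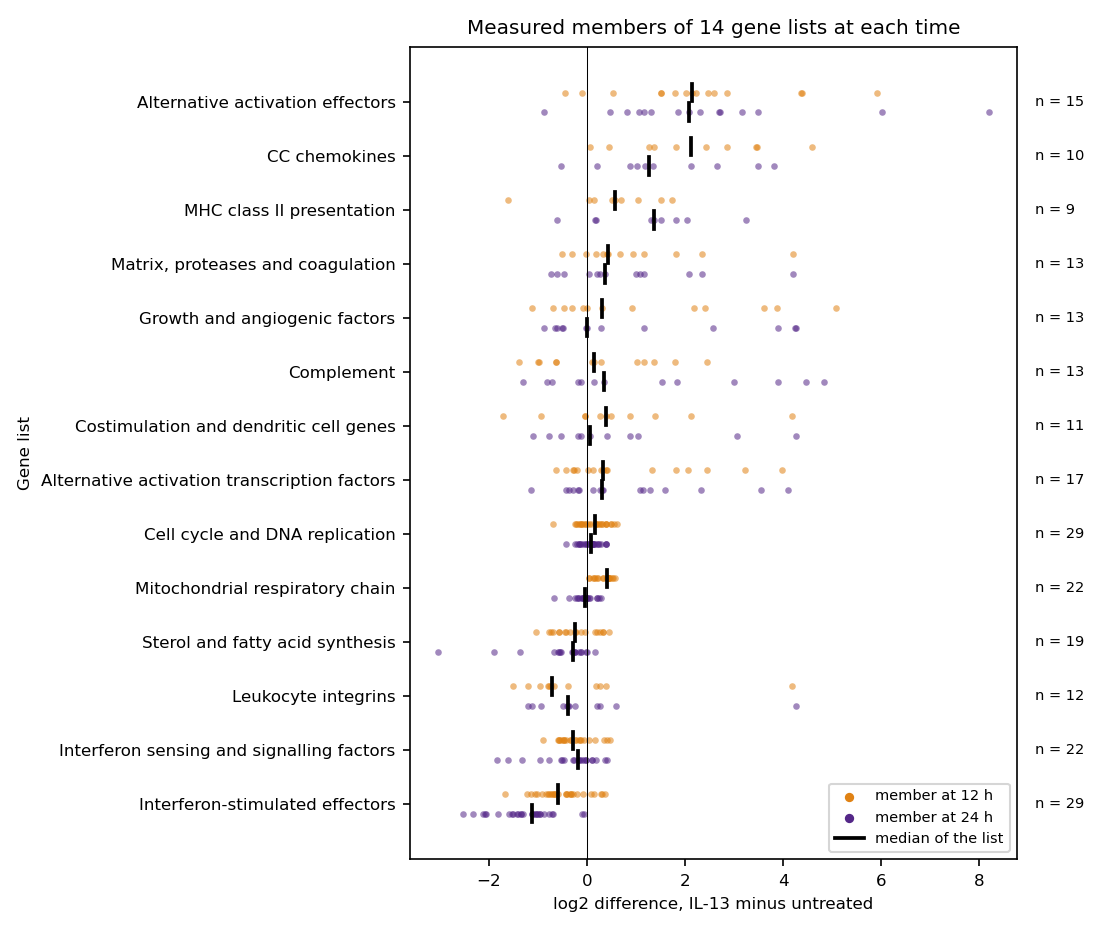
Log2 difference (horizontal axis, IL-13 minus untreated) of every tested member of 14 gene lists at 12 h (orange) and 24 h (purple), with the list's median as a black bar and the number of members at the right. Alternative activation effectors have medians of 2.14 and 2.08, cell cycle genes cluster at 0, and interferon-stimulated effectors have medians of -0.60 and -1.13.

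Enzymes of lipid mediators moved in opposite directions. Alox5, the 5-lipoxygenase that starts leukotriene synthesis, fell from 2812 and 2196 to 751 and 617, a difference of -1.87 ± 0.21 (adjusted p = 0.0331). Its other 2 probes gave -1.87 and -1.90. Tbxas1, thromboxane synthase, rose from 121 and 116 to 429 and 575 (difference 2.07 ± 0.17, adjusted p = 0.0215). Alox5ap, the partner of Alox5, differed by 0.13 ± 0.15, and Ptgs2 by 0.60 ± 0.27. The other 14 of the 16 eicosanoid genes were not called. The Alox5 call was lost without 6 of the 8 arrays (adjusted p up to 0.163).

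Regulators of cell death moved apart as well. Fas, a death receptor, rose from 99.4 and 127 to 413 and 524 (adjusted p = 0.0293), and Bmf, a BH3-only promoter of apoptosis, fell from 382 and 391 to 71.5 and 117 (adjusted p = 0.0462). Other probes of Bmf gave -0.95 and -1.89. Bmf was not called with quantile normalization or with the authors' values (limma adjusted p = 0.0581 and 0.0595). The remaining 17 of 19 members of the list were not called.

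The interferon-stimulated effectors are antiviral genes that type I interferon induces through a complex that holds STAT2 and IRF9. Of 30 genes on the array 29 were tested, all detected in untreated cells, and their fitted log2 differences were below 0 in 29 of 29, against 7756 of the 15439 genes tested. Called lower were 3 of the 29, or Oas3, Oas2 and Rnf213, and 0 were called higher, beside 0.589% called lower over all genes. The median was -0.92, and with quantile normalization it was -0.88. Genes of such a list are known to share regulators and are not independent observations.

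Oas3, an oligoadenylate synthetase that activates RNA decay, read 880 and 667 in untreated cells and 276 and 115 with IL-13, a difference of -2.10 ± 0.21 (adjusted p = 0.0286). A further Oas3 probe gave -0.82. Oas2 went from 2463 and 2554 to 1298 and 887, and Rnf213, a large ubiquitin ligase, from 7505 and 6126 to 3603 and 2868 (adjusted p = 0.0484 and 0.0356). Oasl2 and Mx2 missed the threshold at -1.74 ± 0.28 and -1.57 ± 0.26 (adjusted p = 0.0584 and 0.0598). Stat2, which forms part of the factor that drives these genes, fell from 944 and 855 to 506 and 437 (difference -0.93 ± 0.10, adjusted p = 0.0331). It was the 1 call among 22 sensing and signalling factors. Irf7 read 786 and 1276 and then 663 and 359 (adjusted p = 0.21). The calls of Oas3, Rnf213 and Stat2 were lost without any array except the IL-13 array at 12 h (adjusted p up to 0.127, 0.187 and 0.169), and that of Oas2 without any 1 of the 8 (up to 0.132).

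At 12 h the median of the list was -0.60 and 5 of the 29 genes were at least 2-fold lower. At 24 h it was -1.13 and 20 were, and the difference was larger in size at 24 h in 27 of 29 genes, against 5856 of 15439 genes tested. Isg15, a ubiquitin-like modifier, shows this: it read 1259 and 1085 without and with IL-13 at 12 h, and 2380 and 574 at 24 h. Ifi35, Usp18, Oas1a, Oas1g and Bst2 had values above 0 at 12 h (0.37, 0.31, 0.28, 0.15 and 0.074) and below 0 at 24 h. The change between times was called for none of the genes.

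**Figure D5:**
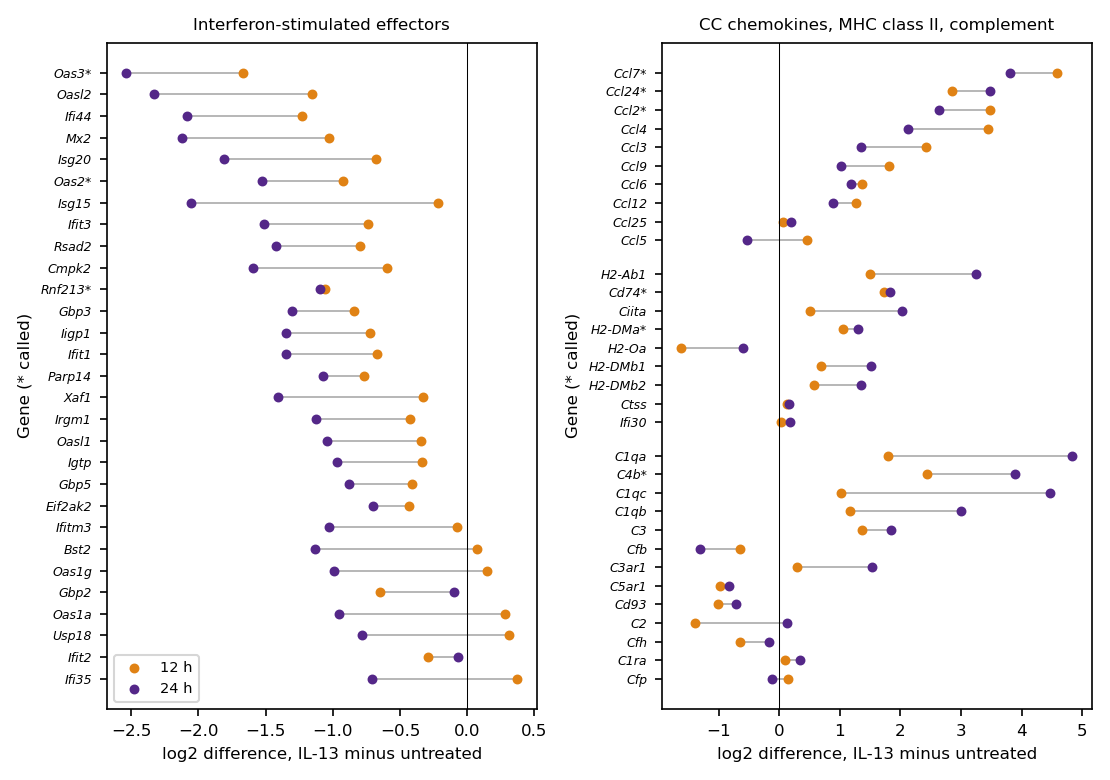
Log2 difference (horizontal axes, IL-13 minus untreated) of each member at 12 h (orange) and 24 h (purple), joined by a grey line, with an asterisk for called genes. On the left, 27 of 29 interferon-stimulated effectors lie farther from 0 at 24 h. On the right, most CC chemokines lie farther from 0 at 12 h, and class II genes and the C1q chains at 24 h.

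Promoters of 3 genes of this pathway are shown for the motif of GAAA, 2 bases of any kind and GAAA, a form of the interferon-stimulated response element, searched on both strands and printed in capitals. Oas3 and Isg15 lie on the minus strand at chr5:120777610-120777909 and chr4:156200769-156201068, and Stat2 on the plus strand at chr10:128270248-128270547, with its match on the other strand. Oas3 and Stat2 held 1 match each, and Isg15 held 3 that overlap.
Oas3: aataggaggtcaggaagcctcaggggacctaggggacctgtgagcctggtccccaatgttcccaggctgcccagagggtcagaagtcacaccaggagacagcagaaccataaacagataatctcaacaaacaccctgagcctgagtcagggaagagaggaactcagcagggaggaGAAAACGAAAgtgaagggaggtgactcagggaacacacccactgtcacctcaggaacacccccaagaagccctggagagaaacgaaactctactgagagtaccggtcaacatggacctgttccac
Isg15: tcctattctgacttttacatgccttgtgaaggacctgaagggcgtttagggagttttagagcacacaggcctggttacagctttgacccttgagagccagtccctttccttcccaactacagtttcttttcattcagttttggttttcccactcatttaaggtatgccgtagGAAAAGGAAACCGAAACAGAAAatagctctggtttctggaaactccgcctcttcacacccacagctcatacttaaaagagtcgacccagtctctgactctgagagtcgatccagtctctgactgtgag
Stat2: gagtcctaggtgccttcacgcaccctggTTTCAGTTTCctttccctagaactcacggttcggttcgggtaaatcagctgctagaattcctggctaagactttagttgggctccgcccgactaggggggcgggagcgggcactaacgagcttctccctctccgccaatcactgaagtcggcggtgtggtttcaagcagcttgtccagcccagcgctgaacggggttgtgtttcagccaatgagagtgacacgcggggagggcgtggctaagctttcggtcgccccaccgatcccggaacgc

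Of the genes called lower, 43 of 91 matched the promoter table by symbol, and 8 of these (18.6%) held this interferon motif in a promoter. The share was 3.76% of the 10172 genes tested that matched, 62.5% of the 24 matched interferon-stimulated effectors and 4.41% of the 68 matched genes called higher. The motif of TTC, 4 bases of any kind and GAA was in a promoter of 12 of those 68 genes (17.6%), of 6.69% of the matched genes tested and of 4.65% of those called lower. With 3 bases between TTC and GAA the shares were 8.82% of genes called higher and 8.26% of genes tested. These matches describe the letters in a short window and were given no test. Among the 12 were Itgax, Clec7a, Edn1, Cd36 and Tbxas1. Itgax, on the plus strand at chr7:128129300-128129599, and Clec7a, on the minus strand at chr6:129472730-129473029, are shown as bright genes with 1 match each, in capitals, 127 and 131 bases before the start.
Itgax: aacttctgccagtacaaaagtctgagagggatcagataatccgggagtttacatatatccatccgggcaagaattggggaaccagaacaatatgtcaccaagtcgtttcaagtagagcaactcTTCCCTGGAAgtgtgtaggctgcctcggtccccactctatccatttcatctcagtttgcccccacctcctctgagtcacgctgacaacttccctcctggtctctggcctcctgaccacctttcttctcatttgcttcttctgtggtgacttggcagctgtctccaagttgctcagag
Clec7a: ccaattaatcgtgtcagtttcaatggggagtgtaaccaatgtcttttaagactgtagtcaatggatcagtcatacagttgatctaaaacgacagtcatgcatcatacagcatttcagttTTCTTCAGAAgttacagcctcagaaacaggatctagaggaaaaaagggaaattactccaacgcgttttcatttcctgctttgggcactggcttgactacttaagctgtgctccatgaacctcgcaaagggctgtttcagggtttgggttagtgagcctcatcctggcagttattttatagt

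Several programmes gave no calls, beside 0.68% called higher and 0.589% called lower over all genes. At such shares a list of this size can hold none without differing from all genes. By limma, 0 genes were called among 29 of the cell cycle and DNA replication, 22 of the mitochondrial respiratory chain, 23 lysosomal proteases and proton pump subunits, 24 of TLR and NF-kB signalling, 17 of the unfolded protein and integrated stress response and 19 of sterol and fatty acid synthesis. An unadjusted p under 0.05 was reached by 5, 1, 6, 10, 0 and 10 of them in that order, against 3694 of 15439 genes. Iron and heme handling (13 genes), osteoclast genes (11) and purinergic signalling (11) gave no call either, with an unadjusted p under 0.05 for 5, 5 and 4 genes. No cell cycle or respiratory chain gene reached 2-fold at either time. The respiratory chain had a median of 0.41 at 12 h and -0.052 at 24 h, but of 0.14 and 0.10 with quantile normalization, so that its difference between times follows the scaling. In the sterol and fatty acid list 15 of 19 genes had values below 0. The fatty acid synthase gene Fasn read 50200 and 23521 in untreated cells and 24349 and 2843 with IL-13 (difference -2.05 ± 0.74, adjusted p = 0.186), with a further probe at -1.97. Srebf2 had a value of -1.29 on the probe used and -0.85, -1.04 and 0.093 on its other 3, and the sterol enzymes Hmgcs1 and Sqle had -0.24 and -0.27. The lists of arginine metabolism, of lipid uptake and of scavenger receptors each held 1 call, Arg1 in the first and Cd36 in the others. Of 24 glycolysis and hypoxia genes, Ndrg1 was called lower at -0.77 ± 0.11 (adjusted p = 0.0492). The Ndrg1 call was kept in 5 of 10 alternative settings, aside from fits without 1 array. Adgre1, the macrophage marker F4/80, rose by 1.06 ± 0.13 (adjusted p = 0.0394). That call was likewise kept in 5 of 10 alternative settings, aside from fits without 1 array. The median of the 17 macrophage identity genes was -0.18.

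Other called rises of large size fell outside the pathways above. Neb, which encodes the muscle protein nebulin, was below background in untreated cells and read 194 and 175 with IL-13, at least 22.7-fold higher (adjusted p = 0.0228). This rests on 1 probe, since its other 5 did not pass the detection filter and had differences between -0.19 and 0.53. Gstt4, a glutathione transferase, was at least 3.74-fold higher, and a further probe gave 3.06. It was the 1 call among 17 glutathione and antioxidant genes. Gstt1, of the same family, was also below background untreated and was not called (at least 1.91-fold higher, adjusted p = 0.0685). Mcam, the adhesion molecule CD146, went from 11.6 and 8.89 to 133 and 130 (adjusted p = 0.0199).

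The largest called falls were mostly in dim genes. Gja3, a connexin gene, read 272 and 65.1 in untreated cells and was below background with IL-13, at least 15.3-fold lower (adjusted p = 0.029). A further 2 probes for Gja3, too dim to be tested, had differences of 0.042 and 0.085. Pilrb1, an activating paired receptor, read 80.6 and 50.8 and then 3.11 and 6.17, with 1 of 2 IL-13 arrays above background (adjusted p = 0.0462), and was the 1 call among 19 Fc and paired receptors. Gper1, a receptor for oestrogen, was detected on all 4 arrays and fell 5.26-fold, from 284 and 182 to 39.7 and 47.2 (adjusted p = 0.0285). Pram1, an adaptor of myeloid cells, fell from 465 and 224 to 114 and 78.3, and a further probe gave -1.64. The Pram1 call was kept in 6 of 10 alternative settings, aside from fits without 1 array. F11r, a junctional adhesion molecule, fell from 66.5 and 44.4 to 17.1 and 13.6 (adjusted p = 0.0474). Its call was kept in 3 of 9 alternative settings, aside from fits without 1 array. Kdm5b, a histone demethylase, fell from 36.9 and 42.9 to 14.1 and 13.3 (adjusted p = 0.0228). Hecw2, Foxb2, Dnaaf1 and Olfr71 fell to below background from untreated signals under 13, and their lower bounds were 1.32-fold, 1.28-fold, 1.21-fold and 1.2-fold. Cnnm1 and Nav2 complete the 15 largest falls, at -1.72 ± 0.23 and -1.54 ± 0.21. Their calls were kept in 3 and 2 of 10 alternative settings, aside from fits without 1 array.

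Among 16 genes at least 4-fold lower at both times, Dtx1, Gata5, Aatk and Ermap were named by size and were not called. Dtx1, a regulator of Notch signalling, read 31.5 and 326 in untreated cells and was below background with IL-13, at least 11.7-fold lower, with an adjusted p of 0.119 and untreated signals that stood far apart between the times.

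Differences at 1 time only were frequent and untested. At least 4-fold at 12 h and under 1.5-fold at 24 h were 17 genes that were higher and 47 that were lower. At least 4-fold at 24 h and under 1.5-fold at 12 h were 11 higher and 61 lower. The change of the IL-13 effect between times was called for 0 of the 15439 genes in limma, with an unadjusted p under 0.05 for 1534 and a model that left 1 residual degree of freedom. With the normexp background correction, chosen for this test after seeing the data, 161 genes were called, 154 of them with a lower value at 24 h. Among genes with a symbol, Aste1 was the largest rise seen at 12 h alone, reading 4.98 untreated and 314 with IL-13 at 12 h, and 8.93 and 7.85 at 24 h. Spag16 read 6.06 and 110 at 12 h and 4.76 and 6.0 at 24 h. A further Spag16 probe, left out by the detection filter, had log2 differences of 6.60 at 12 h and -0.54 at 24 h. The remaining Spag16 probe, left out likewise, had 0.92 at 12 h and -0.71 at 24 h, so it lacked the large rise at 12 h. Htr1f, a serotonin receptor gene, and Ptpn14, a phosphatase gene, had log2 differences of 2.70 and 2.45 at 12 h and were above background on all 4 arrays. Among rises at 24 h alone, Il21r, the receptor of interleukin-21, read 20.01 and 15.2 at 12 h and 20.9 and 98.9 at 24 h. Xirp1 read 24.1 and 23.6 at 12 h and 18.4 and 137 at 24 h.

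In the falls at 1 time alone the untreated array often carried the gap. Rad9b read 8.66 untreated at 12 h and 304 untreated at 24 h, against 7.64 and 12.2 with IL-13. Adgrg3 read 97.3 untreated at 12 h and 12.4 untreated at 24 h, against 9.58 and 8.95. In Lalba and Nog the IL-13 array at 24 h stood apart instead. Lalba, the milk protein alpha-lactalbumin, read 473 and 388 untreated, 536 with IL-13 at 12 h and 35.3 with IL-13 at 24 h. Nog, an antagonist of bone morphogenetic proteins, read 285 and 239 untreated and 263 and 24.0 with IL-13. Trpm2, a calcium channel gene, also differed mostly between its untreated arrays, with 9.51 and 66.0 untreated and 8.85 and 6.53 with IL-13. Of the 61 genes lower at 24 h alone 39 were above background on all 4 arrays, and of the 47 lower at 12 h alone 7 were.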

How the data were processed

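The members of the comparison and the gene lists were chosen with earlier results of these data known. Per the file headers, the authors read 8 arrays of design 014868 with Agilent Feature Extraction 10.7.1.1, which gave each spot a background-subtracted intensity (the processed signal) and other flags of 0 or 1, per the file headers. The authors also deposited a table of log2 values whose normalization is not given in the sources used here. Each of its columns had a Spearman rho of at least 0.999996 with its own array, and it served as an alternative.

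Control spots were removed, outlying spots set to missing and repeated spots averaged, which left 41174 probes. Each array was scaled by the 75th percentile of its signal. Kept were probes that some treatment had well above background on its 2 arrays, and the one with the highest mean signal stood for its gene (15439 genes). Probes were named through RefSeq accessions (27660), symbols (5595) or synonyms (470), and 7449 kept the name in the files. The fit, with limma 3.58.1 under R 4.3.3, used 8 arrays with terms for 4 treatments and for time (3 residual degrees of freedom, prior 2.41). The replicate number was assigned here, as 1 for 12 h and 2 for 24 h, and it is also the slide. The term for time is therefore the replicate block. Where a group was above background on 0 of its 2 arrays, folds are lower bounds against the lowest signal well above background or the gene's own, whichever was higher. Their precision is limited by the number of arrays. The fit was tested on simulated data.

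Named are the 15 largest called differences each way, the 12 largest at least 4-fold at both times, the 6 largest at 1 time alone, the 4 largest in opposite directions, and in 39 lists (695 genes, 570 tested) the called and largest members. Alternatives were quantile normalization, the authors' values, normexp with an offset of 50, other filters and probes, 4 arrays, other treatments of time, a variance trend, and leaving out each array. Results of 3 genes are not reported here.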

Additional observations from a re-analysis of the deposited data

Results flagged for a closer look

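Of the named genes, 5 differed at least 2-fold in opposite directions at 12 h and 24 h, each time being 1 array against 1. Slc7a9 had log2 differences of -1.19 at 12 h and 1.35 at 24 h, a gap of 2.53 between the times, with signals of 11.2 and 11.8 untreated and 4.93 and 30.1 with IL-13. Olfr1355 had 1.72 and -2.50, a gap of -4.22, and Klhdc7a had 2.67 and -1.07, a gap of -3.73 in which the IL-13 array at 12 h read 85.6 and the other 3 arrays at most 13.5. Grin2d had 1.65 and -1.42, a gap of -3.07, with untreated signals of 28.4 and 114. Galnt3 had 1.44 and -1.11, a gap of -2.55. Its other probes gave 1.77 at 12 h and -0.16 at 24 h, and -2.58 and -0.85. With 1 array a time, the difference between times was not tested for IL-13 alone. In the model that fits the change of the IL-13 effect over cells with and without ATRA, none passed limma's test (adjusted p from 0.475 for Grin2d to 0.634 for Galnt3). Slc7a9, Olfr1355 and Klhdc7a were above background on 1 of their 2 IL-13 arrays.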

How the results depend on the processing

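Counts of called genes varied with the settings, against 196 (105 higher and 91 lower). Without a filter on dim probes 1 gene was called higher and 0 lower by limma, with an unadjusted p under 0.05 for 3093 of 27321 genes. With the IL-13 and untreated arrays alone 9 were higher and 0 lower, with an unadjusted p under 0.05 for 2481. Lower calls were 52 with quantile normalization, 52 with the authors' values and 157 with probes above background on all 8 arrays, and a variance trend with robust settings gave 606 calls (274 higher and 332 lower). In these settings the cause was not tested. Leaving out each array gave 2 to 357 calls, with 0 to 250 lower ones. Without the replicate block, which here is the term for time and slide, 165 genes were called, and lower calls were 58. The replicate numbers assigned here mark shared slides, and the fit with the block is the one reported.

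At least 2-fold at both times were 90 higher and 62 lower genes with normexp, whose offset of 50 shrinks the folds of dim probes, and 123 and 129 with probes above background on all 8 arrays, of which there were fewer (13681 genes tested). The 136 genes at least 4-fold at 1 time alone became 20 and 54 under these settings. The change of the IL-13 effect between times was called for 161 genes with normexp, an alternative added after seeing the data, and for 0 with the variance trend, quantile normalization or the authors' values. The cause was not tested.

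Of 1632 results of single genes under alternatives, 1106 kept their direction and side of the threshold, 487 kept the direction and lost the call, 17 gained one, and 22 reversed. The 22 belong to 16 genes that differed at 1 time alone or in opposite directions and were not called, and 20 of them came from leaving out 1 array, which leaves 1 time for that treatment. Over the fits without 1 array the differences ran from -0.3245 to 6.12 for Aste1, -0.405 to 2.98 for Htr1f, -0.303 to 2.37 for Ighg3, -0.547 to 2.45 for Ptpn14, -0.378 to 2.23 for Il21r, -0.292 to 2.47 for Olfr29-ps1, -0.692 to 2.51 for Trim63 and -0.277 to 2.78 for Vmn1r56. They ran from -3.32 to 0.048 for Lalba, -3.37 to 0.553 for Pcdhb18, -4.94 to 0.126 for Rad9b, -1.36 to 1.52 for Slc7a9, -2.24 to 1.46 for Olfr1355, -1.18 to 2.78 for Klhdc7a, -1.12 to 1.35 for Grin2d and -1.28 to 1.60 for Galnt3. Galnt3 was -1.72 on the probe with the largest spread, and Grin2d was -0.050 with normexp. Of 60 named or listed called genes, 29 were called under each alternative that could be fitted, aside from the unfiltered fit, the 4-array fit and the fits without 1 array. Cish was the 1 gene called whichever array was left out. Of the medians of 39 gene lists, 6 changed sign with quantile normalization, and none of the 6 was over 0.215 in size under either setting. Over all 196 called genes 1 turned its sign, Pcsk5, which was 3.38 and fell to -0.087 without the filter. With 2 arrays a treatment and 1 at each time, a rise at 12 h or 24 h alone has no replicate.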
